A study of Mus musculus with 13 samples.

Results

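Langerhans lineage cells were taken from newborn (P0) mouse back epidermis profiled by single-cell RNA-seq in wild type (WT) and Grhl3-/- littermates on the C57BL/6 background. A cell was counted as a member if it held 900 to 7700 genes and at most 10% mitochondrial UMIs, at least 4 of C1qa, C1qb, C1qc, Tyrobp, Fcer1g, Cd52 and Ctss, a sum of these 7 genes of at least 20 UMIs per 10000, and at most 1 UMI of Cd3e plus Cd3g. The members were thus chosen by the measured levels of these 7 genes, which are described here. They were left out of the tests between class II classes and between ages, but not out of the test of Grhl3-/- against WT. The rule found 2225 of 34852 P0 cells that passed the filters, out of 86507 such cells in the 13 libraries of the series. WT 1 held 436 members, WT 2 held 507, Grhl3-/- 1 held 553, Grhl3-/- 2 held 510, and an additional WT library, called the first WT library here, held 219. Grhl3, which encodes a transcription factor of the epidermal barrier and of wound closure, is deleted throughout the Grhl3-/- mouse; these embryos had spina bifida, and skin was taken from the anterior back. P0 epidermis was peeled after an overnight digestion with dispase, whereas the E14.5 and E16.5 samples were whole skin.

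Langerhans cells are the resident mononuclear phagocytes of the epidermis. They descend from macrophage and monocyte precursors that enter the skin before birth, and around birth they divide, take up MHC class II, langerin (Cd207) and EpCAM, and settle between keratinocytes as antigen-presenting cells. MHC class II molecules present peptides to CD4+ T cells: the alpha and beta chains are encoded by H2-Aa, H2-Ab1 and H2-Eb1, Cd74 is the invariant chain that guards the groove, H2-DMa and H2-DMb1 exchange the chain's remnant for peptide, and Ciita is the coactivator that switches these genes on.

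The 6 markers of the lineage were far above the other kept cells in every library, on the scale of counts per 1000000 UMIs (CPM) summed over cells. C1qb, a chain of complement C1q, stood at 2695, 3316, 3307, 3432 and 4157 CPM in WT 1, WT 2, Grhl3-/- 1, Grhl3-/- 2 and the first WT library, the order used throughout, against 6.20 to 11 CPM in the other cells. Cd52 (1312 to 2098 against 16.9 to 45.8 CPM) and the antigen-processing protease Ctss (2036 to 3662 against 4.21 to 9.63 CPM) also chose the cells, so these levels describe the choice. Not used by the rule were Cd74 (5412, 4124, 6168, 7249 and 16612 CPM, against 6.74 to 50.3 CPM), H2-Aa (1584, 1139.8, 1814, 2380.0 and 5378 CPM) and H2-Eb1 (1229.8, 780.1, 1331, 1678 and 3213 CPM), and all 3 were highest in the first WT library. Csf1r, the receptor on which Langerhans cells and macrophages depend, measured 443, 508, 488, 556 and 518 CPM against 1.13 to 1.98 CPM, and Adgre1 (F4/80) 138 to 325 CPM against under 1 CPM.

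Cd207, the defining marker of the mature cell, was present but sparse. At least 1 Cd207 UMI was found in 11 of 436 cells (2.52%), 18 of 507 (3.55%), 20 of 553 (3.62%), 6 of 510 (1.18%) and 17 of 219 (7.76%), against 0.016% to 0.19% of the other kept cells. With cells thinned to 2000 UMIs the shares of members were 1.15%, 2.17%, 1.81%, 0.196% and 4.57%. On both scales the lowest share was in Grhl3-/- 2 and the highest in the first WT library. Epcam pooled over all members (147 to 332 CPM) lay around the level of the other cells (228 to 283 CPM); keratinocytes use the same adhesion molecule. Ccr7, which guides migrating dendritic cells to lymph nodes, had 4.73, 0, 0.204, 0 and 0 CPM.

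Most members passed the rule with room to spare, since 2116 of 2225 held all 7 genes and 2209 held a C1q gene. Just inside the limit, 16 cells had exactly 4 of the genes; just outside, 1 cell had 3 genes with a sum of at least 20, and 24, 17, 10, 24 and 6 cells had 4 or more genes with a sum between 10 and 20 per 10000. The limit on T-cell receptor RNA removed 12, 31, 41, 38 and 31 cells. Members held a median of 5927.5, 8335, 7254, 6705.5 and 5956 UMIs, fewer than the 7633 to 10309 of the other cells in each library. Summed markers of other cells were low for T and NK cells (2.64 to 15.1 CPM), mast cells (3.28 to 23.7 CPM), neutrophils (11.1 to 18.9 CPM), dermis and vessel (5.90 to 14.3 CPM) and red cells (0 to 13.4 CPM). Keratinocyte markers summed to 4651 to 11423 CPM (against 16585 to 52749 CPM in the other cells) and melanocyte markers to 159 to 729.8 CPM.

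The libraries differed in ways that bear on the results. The title of the first WT library names the older Chromium v1 chemistry and its barcodes have 14 bases against 16 in the others. Its protocol text names v2, as that of the others does. It was kept out of the genotype comparison because of the kit in its title, with its values given beside it, and that choice decides the genotype calls over the members, 825 genes without it and 0 with it. Its median mitochondrial share was 0.90% against 2.42% to 3.64% in the others. Grhl3 in all kept cells was 7.0 and 8.29 CPM in WT 1 and WT 2, 2.42 and 2.81 CPM in the Grhl3-/- libraries and 6.34 CPM in the first WT library. The test without the first WT library gave a log2 fold change of -1.44 (edgeR quasi-likelihood test, adjusted p = 0.0062). The labels and the gene thus agree in direction, although Grhl3-/- counts were above 0. All 5 P0 libraries held Y-linked transcripts (Ddx3y 27.8 to 36.5 CPM) and no Xist UMI over the members, while by the methods both sexes were used at each age. The other 4 P0 libraries shared 57 to 99 cell barcodes in each of 6 pairs, and only 1 shared barcode was a member.

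Langerhans lineage cells made up between 4.33% and 7.69% of the kept cells of a library. The share was 6.44% in WT 1 (95% exact binomial interval 5.87 to 7.06), 7.69% in WT 2 (7.06 to 8.36), 6.04% in Grhl3-/- 1 (5.56 to 6.55) and 7.0% in Grhl3-/- 2 (6.43 to 7.61), and 4.33% in the first WT library (3.79 to 4.93). The genotypes overlapped. The means were 7.07 ± 0.884% in WT and 6.52 ± 0.681% in Grhl3-/- (SD, n = 2 each), a difference of -0.549 points (exact permutation test, two-sided, p = 0.667). The difference was 0.364 points when the first WT library was added and 0.0759 points without WT 2. With 2 libraries against 2 this exact test cannot go below p = 0.33, and intervals cover counting error only.

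MHC class II divided the members over a wide range. The 4 genes H2-Aa, H2-Ab1, H2-Eb1 and Cd74 were summed per 10000 UMIs of a cell, and cells at 20 or more were called class II high. High cells numbered 249 of 436 (57.1%, 95% interval 52.3 to 61.8), 228 of 507 (45.0%, 40.6 to 49.4), 360 of 553 (65.1%, 61.0 to 69.1), 330 of 510 (64.7%, 60.4 to 68.9) and 173 of 219 (79.0%, 73.0 to 84.2), in all 1340 high and 885 low cells. The median level was 29.7, 16.3, 38.2, 51.1 and 194.5 per 10000, and the other kept cells had a median of 0. The limit divides a range and does not define a type: 583 cells lay between 10 and 40. Over 6 bands, 346 cells were under 5, 539 at 5 to 20, 345 at 20 to 50, 204 at 50 to 100, 207 at 100 to 200 and 584 at 200 or more per 10000.

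**Figure D1:**
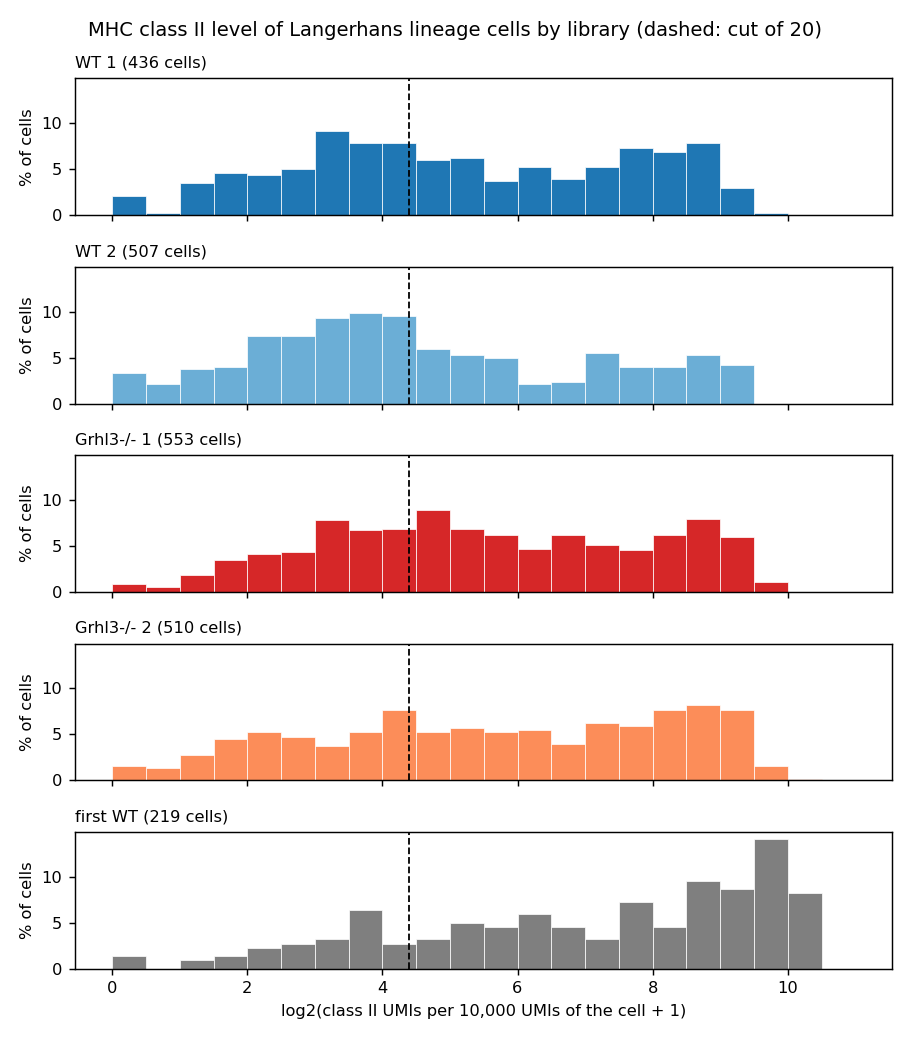
Share of Langerhans lineage cells (percent of each library's members, vertical axis) in bins of log2 of the summed H2-Aa, H2-Ab1, H2-Eb1 and Cd74 UMIs per 10000 plus 1 (horizontal axis), with 1 panel per P0 library; the dashed line marks the limit of 20. The low and high cells are not separated by a gap, and the fullest bin of the first WT library lies near the top of the range.

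The share of class II high cells was higher in both Grhl3-/- libraries than in WT 1 and WT 2. The means were 51.0 ± 8.58% in WT and 64.9 ± 0.278% in Grhl3-/- (SD, n = 2 each), a difference of 13.9 points, with an exact two-sided p of 0.33, the smallest this design allows. The first WT library, at 79.0%, lay above all 4; with it the difference was 4.54 points (exact permutation test, p = 0.8, smallest possible 0.2). The 3 WT libraries thus ran from 45.0% to 79.0%, on both sides of the Grhl3-/- libraries. At a limit of 10 the means without the first WT library were 68.1 ± 5.60% in WT and 76.7 ± 0.932% in Grhl3-/-. At a limit of 50 they were 36.4 ± 8.53% and 47.5 ± 3.78%. Members at 200 or more numbered 105 of 436, 84 of 507, 134 of 553, 153 of 510 and 108 of 219, so WT 1 and Grhl3-/- 1 were close there.

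Promoter sequence is shown for 2 class II genes because the members are divided by their level: each window holds an inverted CCAAT box, the core of the Y box of class II promoters. The 110 bases before the RefSeq start site are printed 5′ to 3′ on the gene's strand, with the letters TGATTGG in capitals.
H2-Aa: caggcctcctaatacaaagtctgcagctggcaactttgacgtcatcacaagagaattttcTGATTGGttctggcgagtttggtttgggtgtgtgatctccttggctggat
H2-Eb1: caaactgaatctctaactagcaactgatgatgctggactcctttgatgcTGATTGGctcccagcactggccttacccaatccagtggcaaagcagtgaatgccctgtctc
In the GRCm38 build these windows, from RefSeq, lie at chr17:34287824-34287933 (minus strand) for H2-Aa and chr17:34305757-34305866 (plus strand) for H2-Eb1, before the first exon. The capitals begin 50 and 61 bases before the start. The letters, searched on both strands and chosen after the sequences were read, were found in 7 of 8 class II genes with an entry (H2-DMa, which was higher in class II high cells, was the exception, and H2-Ab1, Cd74 and Ciita had no entry) and in 1626 of 32851 promoters of this length (4.95%). The 7 include H2-Eb2 and H2-Ob, which were too low to be tested. Whether the letters mark the genes that moved was not tested. A match describes these letters and is not a measured binding site.

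The difference between class II high and low cells of the same library was tested over 9927 genes, leaving out the 4 genes of the limit and the 7 of the rule. In class II high cells 615 genes were higher (6.2% of the genes tested) and 401 lower (4.04%) at an adjusted p under 0.05, together 10.2%. Of 1517 genes that the members carried at 2 or more times the level of the other cells, here called enriched, 421 were higher (27.8%) and 22 lower (1.45%). Over all genes tested 20.9% moved the same way in each of the 5 libraries. Lower genes included macrophage genes and cell cycle genes. Without Grhl3-/- 1 the counts were 335 and 167, and without Grhl3-/- 2 they were 390 and 187. Adjusted p-values here and below come from edgeR's quasi-likelihood test with Benjamini-Hochberg adjustment over all genes tested.

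The rest of the class II machinery followed the limit. H2-DMb1 rose from 20.6, 15.4, 13.8, 7.50 and 49.6 CPM in low cells to 253, 252, 296, 390.3 and 914 CPM in high cells, without overlap (log2 fold change 4.44, SE 0.17, adjusted p = 5.03e-11). H2-DMa rose from 293, 282, 241, 229 and 603 to 710.2, 730.2, 789.6, 986 and 2185 CPM (log2 fold change 1.78), again without overlap. Ciita was at 0, 0.335, 0, 0 and 0 CPM in low cells, 0 in 4 of 5 libraries, and at 13.1, 10.3, 10.2, 23.7 and 26.7 CPM in high cells. H2-Oa (log2 fold change 2.03) and H2-DMb2 (1.19) were higher too, so all 5 tested members passed. Of the class I list, whose products show peptides to CD8+ T cells, 7 of 8 tested genes were higher and none lower, with smaller steps: B2m, the light chain, rose from 1922, 2323, 2463, 2212 and 3602 to 2418, 2846, 3232, 3461 and 3664 CPM (log2 fold change 0.46) with overlap between libraries. The list's median was 0.47, against 0.011 over all genes tested and 0.31 over the enriched genes.

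Langerhans cell genes were high where class II was high. Of 8 tested members, 7 were higher and none lower, with a median log2 fold change of 1.47. Cd207 was at 0.735, 4.36, 0, 0 and 0 CPM in low cells and 18.8, 44.3, 28.2, 6.35 and 55.9 CPM in high cells (log2 fold change 4.24, SE 0.36, adjusted p = 7.44e-07), and low cells were 4 of the 18 Cd207-positive cells of WT 2 and 1 of 11 in WT 1. Epcam rose from 49.3, 61.7, 53.6, 113 and 71.6 to 284, 362, 209, 193 and 414 CPM (log2 fold change 2.12). The classes did not overlap for Cd207 or Epcam. With each cell thinned to 2000 UMIs, 30.5%, 34.6%, 21.4%, 19.1% and 41.6% of high cells and 5.35%, 6.09%, 4.15%, 12.2% and 6.52% of low cells held an Epcam UMI. Il1r2, the decoy receptor of interleukin-1, rose from 130.1, 168, 35.2, 19.4 and 11.02 to 318, 385, 111, 34.7 and 95.5 CPM (log2 fold change 1.46); the classes overlapped between libraries, and the step was upward within each of the 5. Tbc1d4 (1.84), Mfge8 (1.48), Ltc4s, which makes leukotriene C4 (0.86), and Pxdc1 (0.44) were also higher on the log2 scale.

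**Figure D2:**
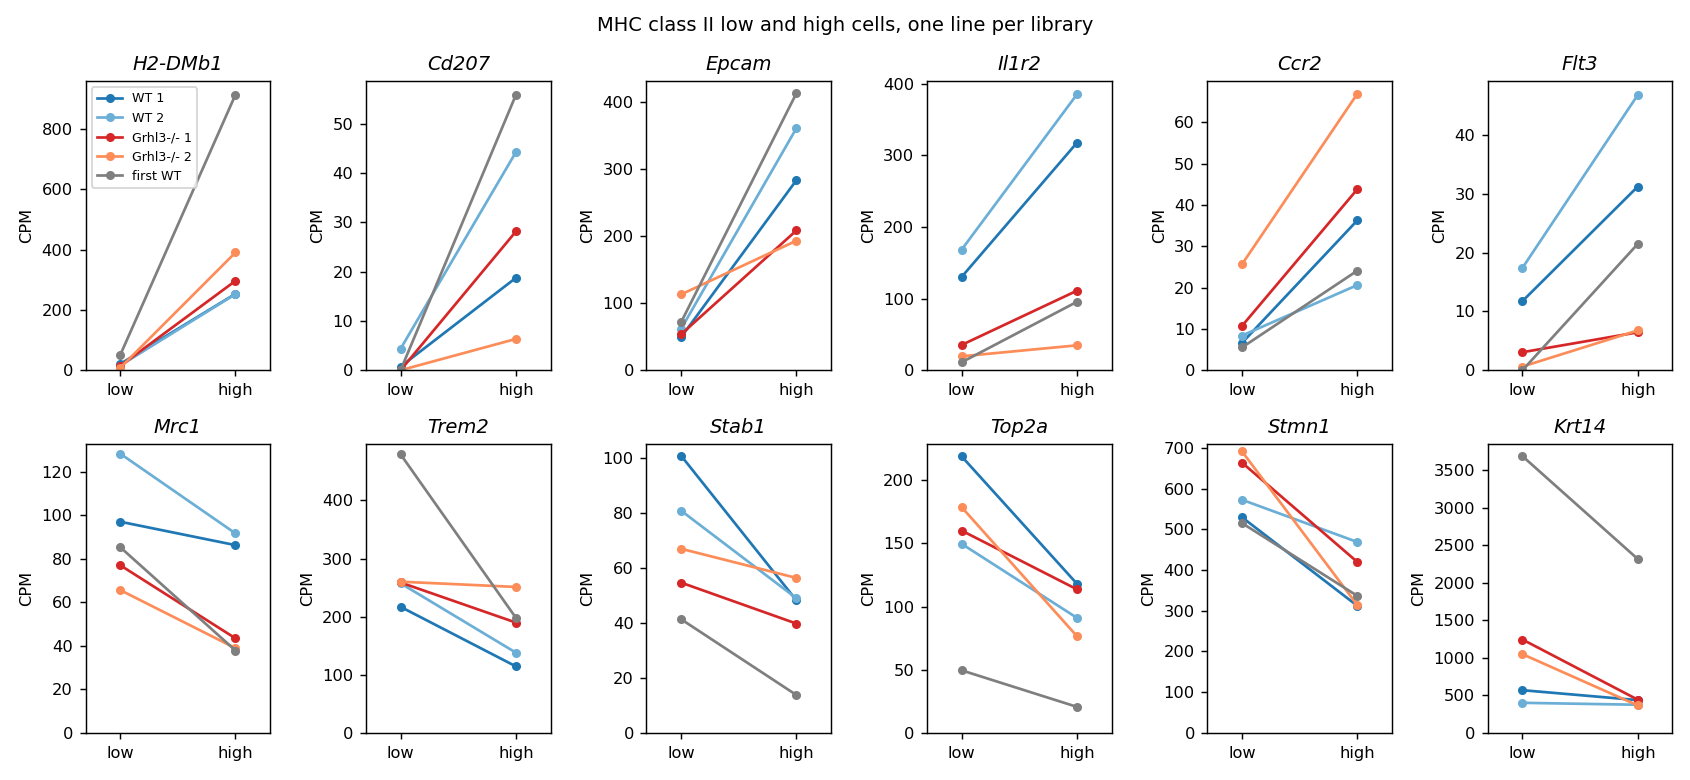
CPM of 12 genes (vertical axes, linear from 0) in class II low and class II high cells, with 1 line per P0 library. Cd207 and Epcam rise and Mrc1, Top2a and Krt14 fall from low to high in each of the 5 libraries.

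Genes outside the presentation lists marked the high cells as well. S100a4, a calcium-binding protein of motile cells, rose from 18.4, 150.1, 17.9, 15.6 and 129 to 303, 672, 278, 226 and 536 CPM (log2 fold change 3.10), and Ly6a (Sca-1) from 8.82, 8.04, 8.17, 5.63 and 16.52 to 39.4, 68.5, 43.5, 44.9 and 207 CPM (2.96). Neither gene overlapped between the classes, and S100a4 was lowest in low cells of Grhl3-/- 2 and highest in high cells of WT 2. Napsa (2.06), Tbc1d4, Mmp12 (1.85), Il1b (1.65), the receptor Gpr141 (1.5) and the lectin Mgl2 (1.49) were higher in the 5 libraries, as were S100a6 (1.38), Plbd1 (1.04), Lsr (1.01) and Casp6 (0.95), which were not enriched in members. Of the dendritic cell list, 5 of 9 tested were higher and none lower: Ccl22 (1.49), Flt3 (1.65), Itgax (1.59), Cd86 (0.61) and Batf3 (0.78). Chemokine receptors and adhesion molecules gave 5 of 10 higher, among them Ccr6 (2.21), Ccr2 (1.84) and E-cadherin (Cdh1, 0.91), and of 12 lineage receptors and factors Id2 (0.76), Runx3 (0.38) and Spi1 (0.40) were higher. Csf1r did not pass the test (log2 fold change -0.059, adjusted p = 0.71).

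Macrophage genes were lower in class II high cells, 9 of 20 tested against 1 higher (Fcgr2b), with a median log2 fold change of -0.39. Pf4, a chemokine that tissue macrophages share with platelets, fell from 130.1, 227, 490.0, 542 and 388 to 30.6, 84.97, 176, 199 and 117 CPM (log2 fold change -1.45, SE 0.097, adjusted p = 3.79e-08); it was lower in the high cells of each library, although high cells of Grhl3-/- 2 overlapped low cells of WT 1. Cx3cr1, the fractalkine receptor, fell from 276, 96.8, 251, 310.2 and 176 to 116, 28.3, 170.4, 279.8 and 83.4 CPM (log2 fold change -0.72), with overlap between libraries. F13a1 (-2.29), Maf (-0.64), Trem2 (-0.56), Stab1 (-0.55), the lipid carrier Apoe (-0.53), the mannose receptor Mrc1 (-0.49) and Cbr2 (-0.81) were lower too, and so were Fcrls (-1.06), Ap1b1 (-0.48) and Ckb (-0.46), which were on no list. The median sum of the macrophage list per cell was 129.7, 127, 139.9, 157 and 287 UMIs per 10000 in low cells and 67.8, 80.8, 109.6, 132 and 76.8 in high cells. Apoe made up most of this sum, so it mainly follows 1 gene. Pooled over cells, Apoe was 8610 of 12304 CPM in low and 4521 of 7428 CPM in high cells of WT 1. In Grhl3-/- 2 it was 8858 of 13785 CPM and 7894 of 12866 CPM. The other kept cells held 1196 to 2728 CPM of Apoe.

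Cell cycle genes went the same way: 13 of 20 were lower in high cells and none higher. Top2a, the topoisomerase of dividing cells, fell from 219, 149.8, 160.3, 179 and 49.6 to 118, 91.2, 114, 76.6 and 20.6 CPM (log2 fold change -0.73), downward within each library and with overlap between them, and Cdk1 (-0.62), Ube2c (-0.70) and Stmn1 (-0.57) were lower. At 2000 UMIs per cell, 15.7%, 12.7%, 18.3%, 12.4% and 5.78% of high cells held at least 2 of 8 G2/M markers, against 24.1%, 24.0%, 30.1%, 29.4% and 4.35% of low cells. The share was lower in high cells of the other 4 libraries and not of the first WT library; unthinned it was 26.1%, 33.3%, 34.4%, 23.3% and 16.2% against 38.5%, 48.0%, 48.2%, 47.8% and 19.6%. Keratinocyte RNA moved with these groups, with 9 of 13 keratinocyte genes lower in high cells and none higher (Krt14 from 569.8, 401, 1245, 1049.9 and 3690.3 to 437, 375, 442, 366 and 2318 CPM), and Bcl11b, Fst, Bmp7, Sparc and Gata3, which were no higher in members than in other cells, were lower as well. Its part in the results was not tested.

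The 6 bands of class II gave the levels of single genes along its range. Cd207 was 8.44 CPM in WT 2 and 0 in the other libraries under 5 per 10000, and was 0, 6.51, 0, 0 and 0 CPM at 50 to 100 per 10000, 14.8, 39.4, 5.43, 2.71 and 6.74 CPM at 100 to 200 and 44.1, 111, 84.0, 13.7 and 92.4 CPM at 200 or more. Epcam at 200 or more was 578, 756, 504, 342 and 642 CPM, against 81.3, 99.99, 35.7, 47.0 and 22.3 CPM at 20 to 50. Both genes thus had their highest level in the top band of every library, while Pf4 was 117, 211, 686, 655 and 724 CPM under 5 and 11.9, 33.4, 54.6, 102 and 89.5 CPM at 200 or more. Cx3cr1 fell from 286, 89.7, 277, 276 and 215 to 40.7, 11.1, 110.3, 229 and 53.4 CPM over the same ends, least in Grhl3-/- 2. These bands are a description with no test.

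**Figure D3:**
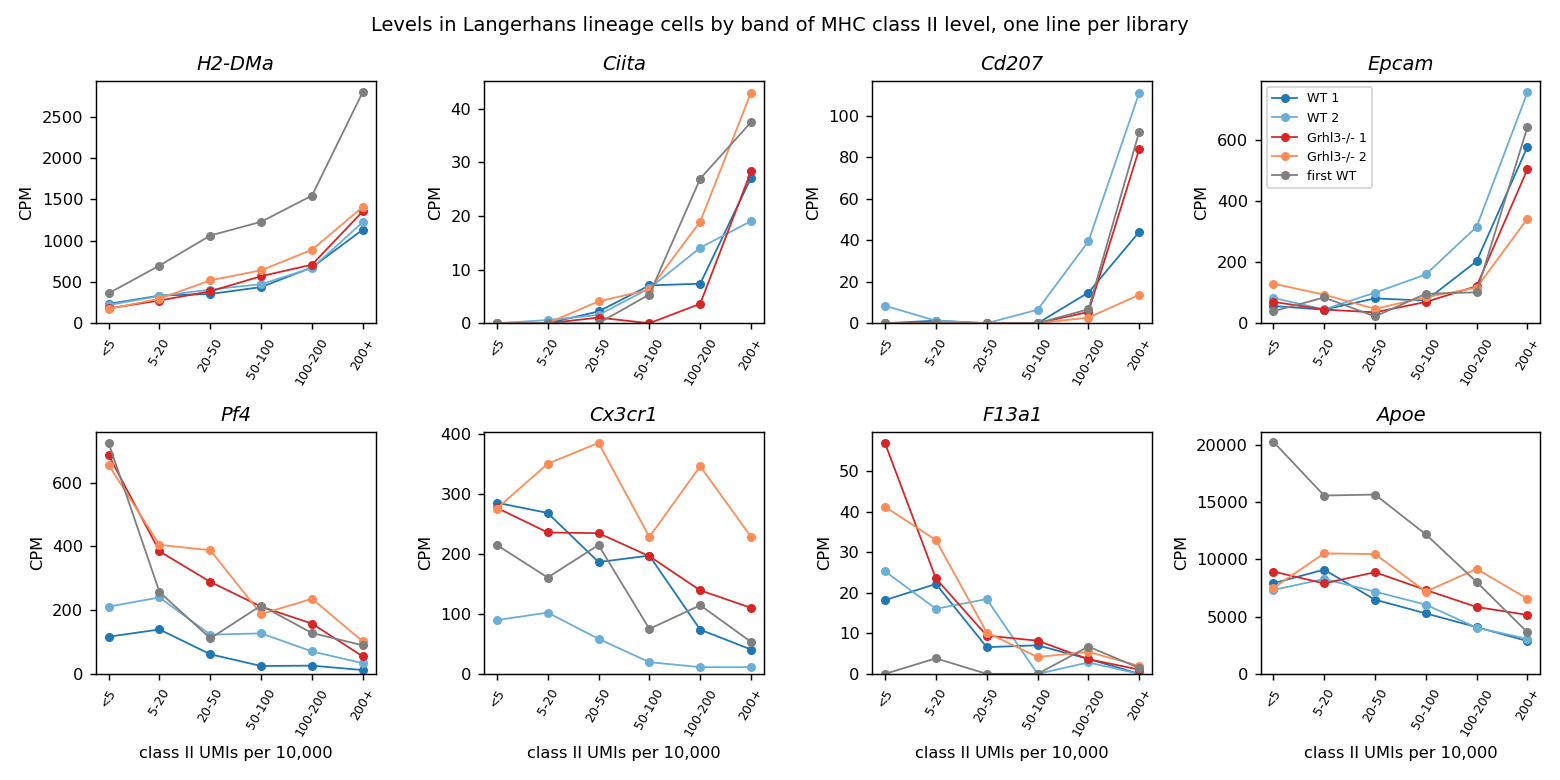
CPM of 8 genes (vertical axes, linear from 0) in 6 bands of class II UMIs per 10000 (horizontal axes), with 1 line per P0 library. H2-DMa climbs through the bands, Cd207 and Ciita appear mainly at 100 and above, and Pf4, F13a1 and Apoe are lowest or near their lowest in the top band.

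Among the other lists, the 9 tested pattern and Fc receptors had a median log2 fold change of 0.069. Of 15 lysosomal genes Ctsh and Npc2 were higher and Ctsd lower, and of 16 cytokines and chemokines Il1b, Il18 and Cxcl16 were higher and Ccl3 and Ccl12 lower. Interferon genes gave 4 of 15 higher (Irf7, Rtp4, Ifi27l2a, Xaf1) with a median of 0.48 and all 15 above 0, ribosomal protein genes 30 of 77 higher with a median of 0.14, and stress genes, which respond to dissociation, 6 of 15 higher (Fos, Fosb, Junb, Atf3, Zfp36, Dusp1) and Egr1 lower. The median over the enriched genes was 0.31.

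Grhl3-/- and WT members were compared with 2 libraries each over 10940 genes. The 7 genes of the rule and the 4 of the class II limit were not left out here. In Grhl3-/- members 385 genes were higher (3.52%) and 440 lower (4.02%), together 7.54% of the genes tested. Among 1644 enriched genes 112 were higher (6.81%) and 172 lower (10.5%), and in 56.6% of all genes tested the 2 libraries of each genotype did not overlap. Of the macrophage list Aif1, Pf4, Cd14 and Apoe were higher and Mertk and Mrc1 lower. Chemokines and immediate early genes were among the higher genes, and Il1r2 and Vim among the lower. With the first WT library added to the WT group edgeR called 0 genes (793 at an unadjusted p under 0.05), and this library was nearer the Grhl3-/- mean for 230 of the 385 higher and 317 of the 440 lower genes. This was counted for called genes only, which were chosen by the distance of WT 1 and WT 2 from Grhl3-/-. The share over all genes tested was not counted, so these counts have no baseline. Of the 825 genes, 792 were tested in the other kept cells of these libraries. There 486 were called in the same direction and 12 in the opposite one. Of the 284 enriched genes among the 825, 251 were tested there. Of these, 84 were called in the same direction and 7 in the opposite one. How many of all genes were called in the other kept cells was not counted, so these overlaps have no baseline either. Without Grhl3-/- 2, Grhl3-/- 1 or WT 1 the count of called genes was 289, 465 or 468. The results that follow hold for these 4 libraries.

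Among the called genes with the largest change were Ccl12 and Mmp12. Ccl12, a ligand of Ccr2, measured 8.45 and 3.25 CPM in the WT libraries and 33.6 and 152 CPM in the Grhl3-/- libraries, with 21.6 CPM in the first WT library (log2 fold change 4.18, SE 0.68, adjusted p = 0.0068). Mmp12, the macrophage elastase, measured 12.2 and 14.2 CPM in the WT libraries and 38.1 and 94.2 CPM in the Grhl3-/- libraries, with 70.8 CPM in the first WT library (log2 fold change 2.40, SE 0.37, adjusted p = 0.0055). In both genes Grhl3-/- 2 was the highest of the other 4 libraries, and for Mmp12 the first WT library lay among the Grhl3-/- libraries. Of 16 tested cytokines and chemokines 7 were higher and none lower: with Ccl12 these were Il1a (1.94), Cxcl10 (1.74), Ccl4 (1.35), Ccl2 (1.04), Cxcl2 (0.85) and Ccl3 (0.78), all on the log2 scale. The receptor Ccr2 was higher (1.31) and Ccr1 lower (-1.23).

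Cd72, an inhibitory lectin, was at 58.5 and 74.3 CPM in the WT libraries and 204 and 319 CPM in the Grhl3-/- libraries, with 717 CPM in the first WT library (log2 fold change 2.07), so the first WT library was above both Grhl3-/- libraries. Ckb, brain-type creatine kinase, was at 31.8 and 25.8 CPM in the WT libraries and 109 and 127 CPM in the Grhl3-/- libraries, with 24.3 CPM in the first WT library (log2 fold change 2.15, SE 0.18, adjusted p = 0.00039), and here the first WT library lay with the other WT libraries. Slamf9 (2.07), Olfml3 (1.70), Mgl2 (1.64) and AW112010 (1.59) were higher too. Among the macrophage genes 4 of 20 tested were higher and 2 lower. Aif1 (Iba1) was at 274 and 329 CPM in the WT libraries and 788 and 793 CPM in the Grhl3-/- libraries, with 755 CPM in the first WT library (log2 fold change 1.49, SE 0.14, adjusted p = 0.0006), Pf4 at 76.4 and 171 CPM in the WT libraries and 301 and 338 CPM in the Grhl3-/- libraries, with 182 CPM in the first WT library (log2 fold change 1.46), and Cd14 (0.80) and Apoe (0.35) were higher.

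Il1r2 and the macrophage genes Mertk and Mrc1 were lower in Grhl3-/- members. Il1r2 was at 231 and 254 CPM in the WT libraries and 80.7 and 28.5 CPM in the Grhl3-/- libraries, with 75.4 CPM in the first WT library (log2 fold change -2.03, SE 0.35, adjusted p = 0.0088). Mertk, a receptor for the uptake of apoptotic cells, was at 99.0 and 56.2 CPM in the WT libraries and 23.2 and 23.5 CPM in the Grhl3-/- libraries, with 2.62 CPM in the first WT library (log2 fold change -1.62), and Mrc1 at 91.2 and 114 CPM in the WT libraries and 56.9 and 49.7 CPM in the Grhl3-/- libraries, with 49.2 CPM in the first WT library (-0.84). In all 3 genes both Grhl3-/- libraries were below WT 1 and WT 2, and the first WT library was nearer the Grhl3-/- libraries. Of 9 tested Langerhans cell genes 3 were lower and none higher: Il1r2, Tbc1d4 (147 and 84.0 CPM in the WT libraries and 44.4 and 30.0 CPM in the Grhl3-/- libraries, -1.52) and Ltc4s (387 and 376 CPM in the WT libraries and 232 and 235 CPM in the Grhl3-/- libraries, -0.61), while Cd207 (10.5 and 20.1 against 16.9 and 3.79 CPM) and Epcam did not pass the test. Amica1 (-1.89), Emilin2 (-1.79), Dgat2 (-1.77), Dpep2 (-1.69), Ap1s2 (-1.56) and the interleukin-17 receptor Il17ra (-1.54) were lower. Vim, an intermediate filament of migrating cells, was at 2142 and 4489.5 CPM in the WT libraries and 1028 and 1004 CPM in the Grhl3-/- libraries, with 6495 CPM in the first WT library (-1.60), with the first WT library the highest.

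**Figure D4:**
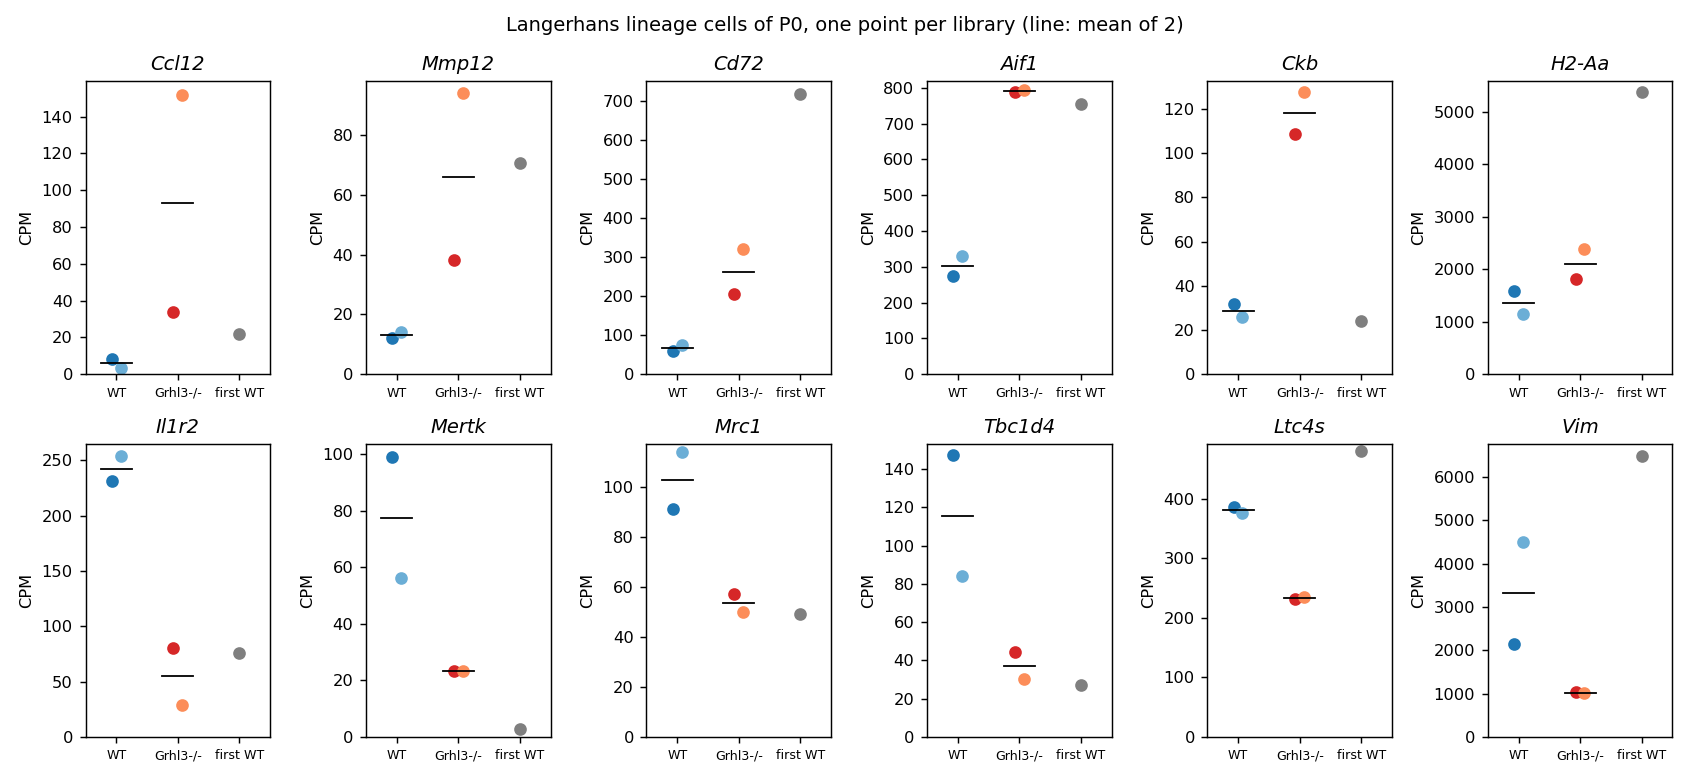
CPM of 12 genes over the members of each library (vertical axes, linear from 0), with 1 point per library for WT, Grhl3-/- and the first WT library; horizontal lines mark the mean of 2 libraries. For Cd72, Aif1, H2-Aa, Mertk, Mrc1 and Tbc1d4 the first WT library lies on the Grhl3-/- side, and for Ckb, Ltc4s and Vim on the WT side.

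Class II genes were higher in Grhl3-/- members, with 4 of 9 tested genes past the threshold and a list median of 0.68. H2-Aa was at 1584 and 1139.8 CPM in the WT libraries and 1814 and 2380.0 CPM in the Grhl3-/- libraries (log2 fold change 0.72, SE 0.17, adjusted p = 0.034), and H2-Ab1 (0.70), Cd74 (0.59) and H2-DMb1 (0.82) were the others. With the first WT library added to WT the log2 fold changes of these 4 genes turned to -0.25, -0.39, -0.27 and -0.49. Within class II high cells alone, none of the 4 passed (log2 fold changes 0.40, 0.39, 0.33 and 0.58, adjusted p from 0.079 to 0.11). H2-Aa, H2-Ab1 and Cd74 belong to the sum that chose the high cells. For these genes the fit within high cells is limited because the cells were chosen by the same levels. In the pooled members a change in the share of high cells and a change in level cannot be told apart. The class I genes B2m (0.42), Psmb8 (0.51) and Psmb9 (0.52) were higher. Of 15 interferon response genes 4 were lower and none higher: Ifit1 (-1.69), Oasl2 (-1.57), Irf7 (-1.16) and Rtp4 (-1.09). Irf8, a transcription factor of mononuclear phagocytes, was the 1 of 12 lineage genes that passed (100.01 and 82.6 CPM in the WT libraries and 150.5 and 165 CPM in the Grhl3-/- libraries; log2 fold change 0.89). Batf3 was higher (2.24), and Flt3 (-2.35) and the pattern receptors Tlr2 (-1.12) and Tlr4 (-1.67) were lower.

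Genes that respond to tissue dissociation moved with genotype: 9 of 15 were higher and none lower, among them Fosb (2.07), Atf3 (2.03), Jun (1.26), Junb (1.06) and Fos (0.96). Their sum was 2349 and 2418 CPM in WT, 3642 and 4405 CPM in Grhl3-/- and 4375 CPM in the first WT library. In the other kept cells of the same libraries Fosb (2.03), Jun (0.97), Atf3 (0.74), Junb (0.51) and Fos (0.46) were called higher too. Of 20 cell cycle genes 6, all of S phase, were higher (Tyms, Rrm2, Pcna, Mcm2, Mcm5 and Tk1, log2 fold changes 0.86 to 1.59), and the same 6 were called higher in the other kept cells (0.98 to 1.29). Keratinocyte RNA changed within the members too, with Krt14 and Lgals7 higher and Krt10 (-1.74), Krt1, Krtdap, Perp and Dsp lower; the 5 lower ones were lower in the other cells as well (Krt10 -2.03). Among genes not enriched in members, Gm8730 was at 200.4 and 248 CPM in the WT libraries and 1346 and 1156 CPM in the Grhl3-/- libraries, with 140.3 CPM in the first WT library (2.58), and Ccer2 at 391 and 309 CPM in the WT libraries and 7.95 and 6.82 CPM in the Grhl3-/- libraries, with 42.6 CPM in the first WT library (-5.45). In the same set Odc1 (1.62), Gm26825, Fdps and St3gal6 were higher and Flg, Ly6g6c, Ahnak and Pdcd4 lower. The part of stress and of RNA from other cells in the genotype differences was not tested. In pooled members, fewer cells with a gene and less of its RNA per cell cannot be told apart.

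Whether the step from low to high cells itself differed by genotype was tested over 9853 genes, and 41 were more positive (0.416%) and 30 more negative (0.304%) in Grhl3-/-, together 0.721%. Of 1491 enriched genes 37 were more positive (2.48%) and 1 more negative (0.0671%), and the log2 ratios of the genotypes did not overlap in 40.7% of all genes tested. The count was 28 without Grhl3-/- 2 and 205 without Grhl3-/- 1. For Cx3cr1 the log2 ratio of high to low cells was -1.22 and -1.61 in WT and -0.54 and -0.15 in Grhl3-/- (difference 1.19, SE 0.19, adjusted p = 0.0019), so high cells of Grhl3-/- epidermis were nearer to low cells in this gene. Apoe (0.65), Trem2 (0.75), Lyz2 (0.55) and Aif1 (0.58) differed in the same sense, giving 5 of 20 macrophage genes. The median difference was 0.40 over the macrophage list, near the 0.32 over all enriched genes, and 0.018 over all genes tested. Among class II genes outside the limit, all 5 tested were more positive in Grhl3-/-, with a median of 1.16. Of these 5, only H2-DMa passed the test. Mmp12 had ratios of 0.062 and 0.40 in WT and 1.76 and 2.84 in Grhl3-/- (difference 2.43, adjusted p = 0.0026). Epcam had ratios of 2.41 and 2.46 in WT and 1.87 and 0.75 in Grhl3-/- (difference -1.12, adjusted p = 0.023), while Ltc4s differed the other way (0.60), so that of 8 Langerhans cell genes 1 was more positive and 1 more negative. Keratinocyte RNA moved with this result: 7 of 13 keratinocyte genes differed downward and 1 upward (Lor, 4.07), and the sum of the list was 6822 and 7530.0 CPM in low cells and 3208 and 2754 CPM in high cells of Grhl3-/-, against 7642 and 5227 CPM and 5145 and 4546 CPM in WT.

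In E16.5 whole skin 1329 cells passed the same rule. Of these 451 held all 7 genes, 1042 held a C1q gene, 272 held 2 or more mast cell UMIs and 134 were class II high (8.33% to 13.5% per library). At E14.5 864 cells passed, of which 394 held all 7 genes, 751 held a C1q gene, 34 held 2 or more mast cell UMIs and 65 were class II high. Between E16.5 and P0, with WT and Grhl3-/- pairs at each age, 2961 of 11108 genes were higher at P0 (26.7%) and 2865 lower (25.8%), together 52.4%. Of 1652 enriched genes 506 were higher (30.6%) and 576 lower (34.9%), and the ages did not overlap in 47.3% of the genes tested. Age, tissue (whole skin against epidermis) and digestion cannot be told apart here, nor can sex be fully separated from them. Red cell RNA was 20991 to 31203 CPM at E16.5 against 0 to 13.4 CPM at P0, and Xist was 1318, 1160.4, 3.23 and 1069 CPM against 0. Sex markers differed with age in part: Ddx3y was at 35.8 CPM in E16.5 Grhl3-/- 1 and at 0 in the other E16.5 libraries. In that library Epcam was at 3.77 CPM, H2-Aa at 279 CPM and F13a1 at 1681 CPM. No sex term was fitted, and the part of sex in the differences between ages was not tested.

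Langerhans and class II genes were higher at P0. Cd207 was at 0 CPM in all 4 E16.5 libraries and at 10.5, 20.1, 16.9 and 3.79 CPM in P0 WT 1, WT 2, Grhl3-/- 1 and Grhl3-/- 2. Epcam was at 4.82, 7.49, 3.77 and 4.99 CPM at E16.5 and 176, 179.9, 147 and 161 CPM at P0 (log2 fold change 5.18), and H2-Aa at 552, 284, 279 and 216 CPM at E16.5 and 1584, 1139.8, 1814 and 2380.0 CPM at P0 (2.56), without overlap. All 9 tested class II genes and 8 of 9 Langerhans cell genes were higher, and so were Runx3, a factor that Langerhans cells require (4.34), the TGF-beta receptor Tgfbr1 (2.60), the receptor Axl (3.16) and E-cadherin (4.52 for Cdh1). Zmynd15, enriched in members, rose from 0.689, 3.49, 2.69 and 3.33 to 253, 227, 342 and 411 CPM (7.13), with the fusion proteins Ocstamp (5.97) and Dcstamp (5.81), Cxcl16 (4.71), AW112010 (4.62), Cd72 (4.53), Havcr2 (4.06), Spint1 (4.01) and Neurl3 (3.94). Keratinocyte and melanocyte RNA rose with them (11 of 12 and 5 of 5 genes, among them Dct and Pmel, with Ccer2, Krt79 and Ptgds), and Epcam and Cdh1 are also keratinocyte genes.

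Genes of dermal macrophages and monocytes were lower at P0, 14 of 22 macrophage genes, whereas Cd14, Trem2 and Mertk were higher. Lyve1 was at 657, 564, 1096 and 852 CPM at E16.5 and 0, 0.609, 0 and 0 CPM at P0. F13a1 was at 1623, 1673, 1681 and 1504 CPM at E16.5 and 11.5, 14.8, 17.3 and 17.9 CPM at P0 (log2 fold change -6.55). Groups did not overlap for either gene. Folr2 (-6.08), Pf4 (-5.07), Mrc1 (-3.26), Cd163, Ccl7, Plac8, Ifitm6, S100a8, Ccl24, Colec12 and Fcna were lower as well, as were the chemokine Ccl2 (-5.08) and its receptor Ccr2 (-2.22). Of the 9 macrophage genes that were lower in class II high than in class II low cells at P0, Pf4, F13a1, Mrc1, Maf, Stab1 and Cbr2 (6 of 9) were lower at P0 than at E16.5, Trem2 was higher (0.96), and Cx3cr1 (0.13) and Apoe (0.45) did not pass the test. Dermis and vessel genes (6 of 6) and red cell genes (5 of 5), and the mast cell protease Cpa3, were lower too. Leaving out cells with 2 or more UMIs of T and NK cell, mast cell or neutrophil markers gave 5369 called genes against 5826. Keratinocyte, melanocyte, dermis, vessel and red cell markers were not part of this filter.

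**Figure D5:**
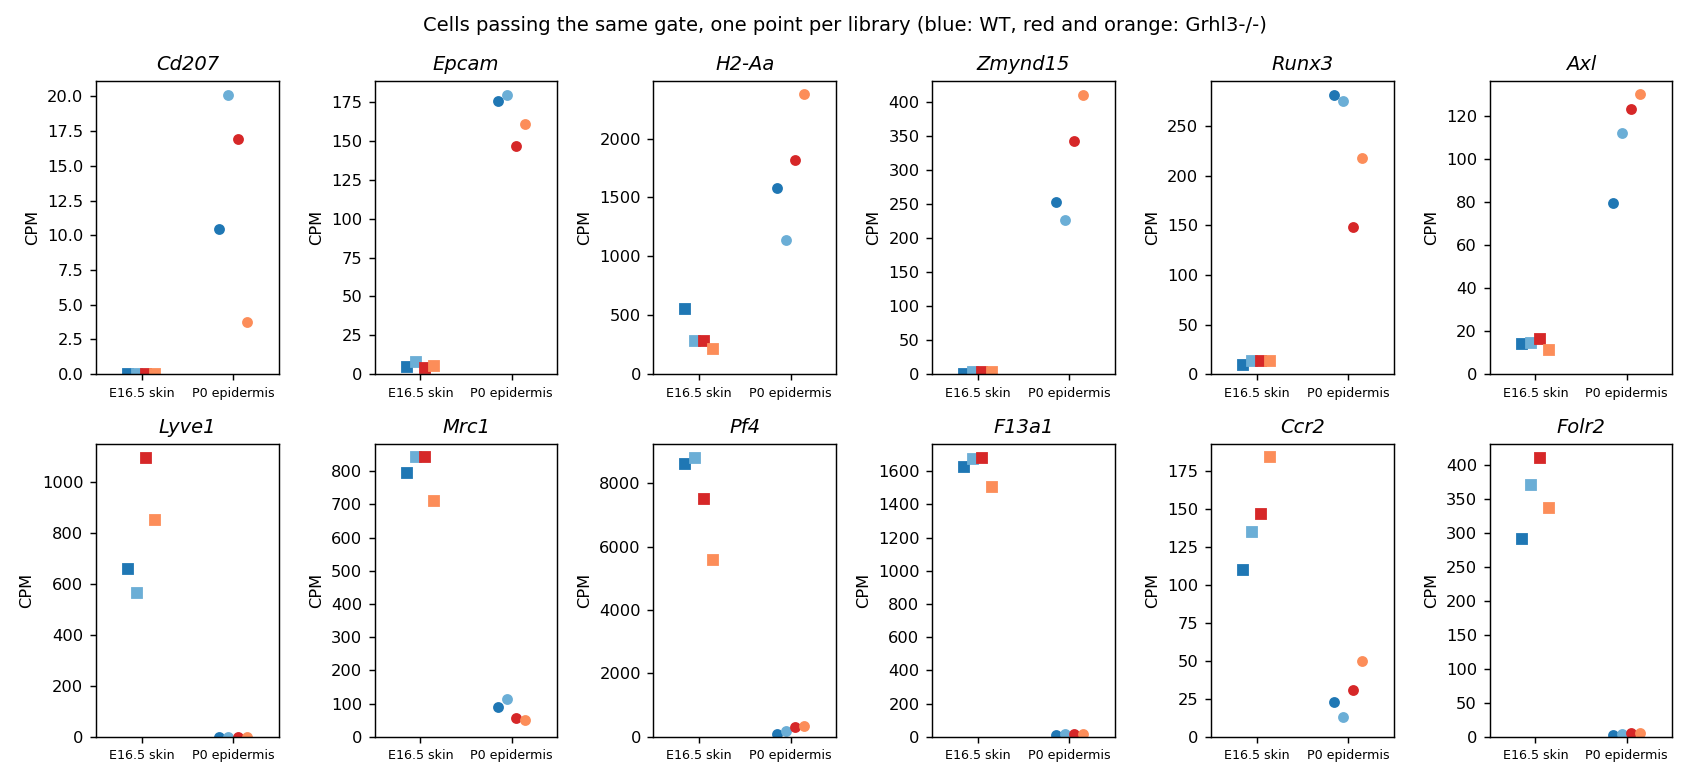
CPM of 12 genes over the cells that passed the same rule in E16.5 whole skin (squares) and P0 epidermis (circles), with 1 point per library and linear vertical axes from 0; blue marks WT, red and orange Grhl3-/-. The upper genes are higher and the lower genes lower in each P0 library than in any E16.5 library.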

How the data were processed

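Droplet-based 3′ single-cell RNA-seq (10x Chromium) of mouse back skin gave UMI counts per gene and cell, deposited as filtered matrices of 27998 genes that the authors made by aligning to mm10 with Cell Ranger (1.3.1 per the submitters' processing notes, another version in the methods). No count was normalized before deposit, and depth per P0 library was 49245953 to 107038146 UMIs. Cells were kept at 900 to 7700 genes (600 to 4800 in embryos) and at most 10% mitochondrial UMIs. UMIs of the members were summed per library, and per class II class where a sum held at least 10 cells (1525634 to 4926174 UMIs per library). Sums were tested in R 4.3.3 with edgeR 4.0.16 (filterByExpr, TMM, quasi-likelihood test, Benjamini-Hochberg threshold 0.05), with genotype as the term for Grhl3-/- against WT, library as a block for class II classes, and genotype as covariate for P0 against E16.5. DESeq2 1.42.0 was an alternative. Shares were compared by exact permutation over libraries with scipy 1.17.1, with exact binomial (Clopper-Pearson) 95% intervals. By the methods the replicates were littermates; counts of replicates differed by more than sampling noise. Doublets were called with Scrublet in scanpy 1.11.5, kept, and left out as an alternative for the shares and for Grhl3-/- against WT only. Of the members 53 of 436, 63 of 507, 79 of 553, 62 of 510 and 26 of 219 were called. Of all barcodes 406 of 7096, 396 of 6877, 700 of 9336, 464 of 7374 and 215 of 5068 were called, a lower share in each library.

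Named genes were called genes averaging 5 or more on the log2 CPM scale whose groups did not overlap (for class II classes, that moved the same way within each library): the 10 with the largest change each way among genes at 2 or more times the level of other kept cells, the 5 each way among the rest, and from each list the called members and the 4 with the highest level. Members, classes and lists were chosen with earlier results of these data known. Alternatives added after seeing the data were the age comparison with cells holding T and NK cell, mast cell or neutrophil UMIs left out and with a C1q UMI required. Scripts were tested on simulated counts. The values of 1 gene of the macrophage list are not reported here. Promoter sequences came from RefSeq (GRCm38.p6).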

Additional observations from a re-analysis of the deposited data

Results flagged for a closer look

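The following genes were singled out because the test of the difference between genotypes, class II high against low in Grhl3-/- minus the same in WT (edgeR quasi-likelihood test with 2 libraries each, adjusted p under 0.05), found that the step differed. Values are differences of log2 fold changes. With DESeq2, 11 of the 37 genes named for this test, which include those below, stayed past the threshold. The other 26 kept their direction but fell short of the threshold or had no adjusted p. Among genes enriched in members the difference was 2.43 for Mmp12, 1.70 for Dgat2, 1.19 for Ramp1, 1.19 for Cx3cr1, 1.075 for Nceh1 (a cholesterol ester hydrolase), 1.004 for Nrros (a TGF-beta anchor of microglia and macrophages), 0.97 for Ccl9, 0.96 for Hpgd (which breaks down prostaglandins), 0.93 for Vav1 and 0.93 for Nckap1l. Among the other genes it was 0.58 for Hspa5, 0.58 for Prdx1 and 0.37 for Hspa8, and it was -2.10 for H19, -1.78 for Ly6d, -1.71 for Dcn, -1.47 for Wnt4 and -1.35 for Urah.

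Ly6d, a surface protein of keratinocytes, was at 293 and 259.5 CPM in low cells and 104 and 44.5 CPM in high cells of Grhl3-/-, against 279 and 317 CPM and 287 and 286 CPM in WT. High cells of Grhl3-/- held the least of this RNA, below both classes of WT and low cells of Grhl3-/-. Ramp1, part of the receptor for the neuropeptide CGRP, was at 89.3 and 78.2 CPM in low cells and 124 and 138 CPM in high cells of Grhl3-/-, against 72.0 and 50.9 CPM and 44.4 and 41.7 CPM in WT. The first WT library was not part of this test.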

How the results depend on the processing

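The Langerhans lineage share difference between genotypes kept its sign in 9 of 11 alternatives; it was 0.364 points with the first WT library added and ranged from -1.17 to 0.0759 points when 1 library was left out, the positive value being without WT 2. The class II high share difference stayed positive in 14 of 14, between 4.54 and 19.9 points. With the first WT library added, none of the 86 named genes stayed past the threshold and 6 turned: Cd74 (-0.27), Fdps (-0.16), H2-Aa (-0.25), H2-Ab1 (-0.39), H2-DMb1 (-0.49) and Krt14 (-0.63). The causes were not tested.

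For Grhl3-/- against WT, the 825 genes became 483 with DESeq2 (246 higher, 237 lower), 1575 with no filter on low counts (666 and 909), 228 over enriched genes alone (100 and 128; fewer genes tested), 0 with the first WT library added (793 at an unadjusted p under 0.05), 500 without called doublets (256 and 244) and 467 in class II high cells alone (253 and 214), and 289 to 901 with 1 library left out. For class II high against low, 1016 became 395 with DESeq2 (276 and 119), 267 in cells thinned to 2000 UMIs (162 and 105; fewer genes tested) and 502 to 928 with 1 library left out. For the difference between genotypes in that step, 71 became 13 with DESeq2 (4 and 9), 181 with no filter (126 and 55) and 28 to 205 with 1 library left out. In the DESeq2 fit of that difference between genotypes, 9169 of 9853 genes had no adjusted p, so its 13 calls come from far fewer genes. For P0 against E16.5, 5826 became 1058 over enriched genes alone (535 and 523; fewer genes tested) and 5350 to 5658 with 1 library left out.

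A replicate block on the library numbers gave 1035 genes (458 higher, 577 lower) for Grhl3-/- against WT and 5766 for P0 against E16.5. The numbers do not pair the libraries: the deviations of WT 1 and Grhl3-/- 1 from their group means correlated at -0.0498 over 10940 genes. As a paired difference, the Langerhans lineage share was -0.549 points and the class II high share 13.9 points (exact permutation test, p = 0.5 each). The comparison of class II high with low cells, and the difference between genotypes in that step, already had the library as the block.

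With 2 libraries per genotype the share tests cannot pass 0.05. Leaving out a library leaves 1 in its group, which is then assumed to vary like the others. Genes such as Cd207 and Ciita had few UMIs per library.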
